A study of Bos taurus with 14 samples.

Results

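The miR-148 and miR-152 family was described in beef heifers, in white cells of the peripheral blood (PWBC), through its 3 mature miRNAs, bta-miR-148a, bta-miR-148b and bta-miR-152. They were chosen by their mature names and are 3 of the 1030 mature miRNAs listed in the count table. Each of the 3 has 1 entry in that table, had counts in every heifer and passed the filter on low counts, together with 338 other miRNAs (341 tested in all). The 14 heifers were Angus-Simmental crossbreds bled once, at weaning, and 1 small RNA library was made per heifer. The 7 FH (fertile) heifers later became pregnant to artificial insemination. The 7 SFH (subfertile) heifers were found not pregnant at the pregnancy examination, after insemination and then exposure to bulls. Whether any of them had conceived and lost the conceptus before it is not known. All underwent the same synchronised breeding protocol after sampling, and the groups were formed in retrospect from its outcome, with heifers of similar weaning age and weight selected for both. PWBC are a mixture of cell types, so the libraries hold the summed miRNAs of all of them.

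MicroRNAs guide Argonaute proteins to messenger RNAs by pairing of the seed, bases 2 to 8 of the mature strand, and lower the stability and translation of those messengers. The members of this family carry the same seed and differ mainly in the bases after it, so they are taken to reach largely the same targets. Among the targets established in other mammals are the maintenance DNA methyltransferase DNMT1 and the non-classical major histocompatibility molecule HLA-G. In immune cells, miR-148a is known to impair B cell tolerance, and the family dampens the response of dendritic cells to Toll-like receptor ligands.

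The 3 precursors lie on different chromosomes. According to RefSeq for ARS-UCD2.0, a later assembly than the ARS-UCD1.2 genome used for alignment, MIR148A is on chromosome 4 outside any protein-coding gene, MIR148B on chromosome 5 within the span of *COPZ1*, and MIR152 on chromosome 19 within the span of *COPZ2*. *COPZ1* and *COPZ2* are paralogues that encode the zeta subunits of the COPI vesicle coat. Among the 6 nearest named protein-coding genes on each side, the 3 precursors share paralogous neighbours, which were looked up after the members were known. MIR148A has *NFE2L3* and *CBX3*, MIR148B has *NFE2* and *CBX5*, and MIR152 has *NFE2L1* and *CBX1*. The annotation also places MIR148D over MIR148A and MIR148C over MIR152. Their mature products bta-miR-148d and bta-miR-148c had 0 counts in all 14 heifers, which over the 43043889 counts of the series allows a level of up to 0.0697 CPM (3 counts; counting error only). The table used gives no strand, so the arrangement of the overlapping precursors was not examined.

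The libraries held 1754971 to 5468341 counts on mature miRNAs (median 2870197), and the 3 members together made up 0.489% to 1.13% of them (median 0.827%). Every member had at least 379 counts in every library, so counting error was small beside the spread between heifers. Across miRNAs, which do not count as independent replicates, the log2 levels of a heifer correlated with those of the others at a median r of 0.882 to 0.927. The cell label was checked on leukocyte miRNAs (bta-miR-142-5p, bta-miR-142-3p, bta-miR-223, bta-miR-150 and bta-miR-155), whose summed level was 71858 to 131583 CPM in FH and 63981 to 146312 CPM in SFH. Among the miRNAs of other cells, bta-miR-144 of red cells and bta-miR-429 of epithelium had 0 counts in every heifer, and bta-miR-122 of liver had 0 counts in 5 heifers of each group and at most 4.65 CPM elsewhere. The other red cell markers, bta-miR-451 and bta-miR-486, were present, with 1574 to 3712 CPM in FH and 1462 to 9234 CPM in SFH. The epithelial list summed to 149 to 249 CPM in FH and 55.9 to 235 CPM in SFH, and the muscle list to 0 to 85.6 CPM and 0.650 to 275 CPM.

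bta-miR-148a and bta-miR-148b were close to each other in abundance, and bta-miR-152 was much lower. Levels are given as CPM (counts scaled to a common library total) over the retained miRNAs, as deposited. Mature miRNAs of this family have nearly the same length, so CPM serves as a level per length, although the efficiency with which each sequence entered the libraries was not measured. Averaged over the 14 heifers, bta-miR-148a ranked 46th of the 341 miRNAs (3995 ± 1365 CPM, SD) and bta-miR-148b 47th (3877 ± 1138 CPM), while bta-miR-152 ranked 118th (238 ± 52.8 CPM). The neighbours in that order were bta-miR-361 above bta-miR-148a (4113 ± 567 CPM) and bta-miR-30b-5p below bta-miR-148b (3830 ± 1908 CPM). These 4 neighbouring levels overlapped within their SD between heifers, and differences between them within a heifer were not tested. Around bta-miR-152 lay bta-miR-1468 (241 ± 48.5 CPM) and bta-miR-6120-3p (237 ± 97.3 CPM), with means inside its SD, also without a test. The ratio of bta-miR-148a to bta-miR-152 was 9.04 to 27.7 across heifers, and that of bta-miR-148b to bta-miR-152 was 7.70 to 26.0, so that the order of bta-miR-152 below both others held in each library.

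In FH, bta-miR-148a ranged from 2072 to 6051 CPM with a median of 3717 CPM. Heifers 20, 25 and 29 were low (2072, 2207 and 2206 CPM) and heifers 22, 24 and 27 were high (5752, 6051 and 5103 CPM), with heifer 31 between them. In SFH it ranged from 2999 to 5359 CPM (median 3738 CPM), and every SFH heifer lay within the FH range. The SD was 1761 CPM in FH and 949 CPM in SFH around means of 3872 and 4118 CPM, and whether the spread differed between the groups was not tested.

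For bta-miR-148b the FH heifers ranged from 2544 to 5387 CPM (median 4683 CPM, mean 4252 ± 980 CPM, SD) and the SFH heifers from 2175 to 5767 CPM (median 3073 CPM, mean 3503 ± 1232 CPM). SFH heifer 21 had the highest value of all 14. The other 6 SFH heifers lay on the TMM scale below the FH median, and 4 of them below every FH heifer (2069, 2516, 2709 and 3109 against an FH minimum of 3113 TMM-scaled CPM). On the deposited scale 1 SFH heifer, at 2175 CPM, lay below every FH heifer.

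bta-miR-152 had 144 to 245 CPM in FH (median 209 CPM, mean 210 ± 35.8 CPM, SD) and 181 to 345 CPM in SFH (median 277 CPM, mean 266 ± 54.3 CPM). On the deposited scale the SFH heifers 17, 23, 26, 28 and 32 had 345, 277, 246, 303 and 287 CPM, each above the highest FH heifer. Heifers 21 and 30 of SFH fell within the FH range, at 222 and 181 CPM.

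**Figure D1:**
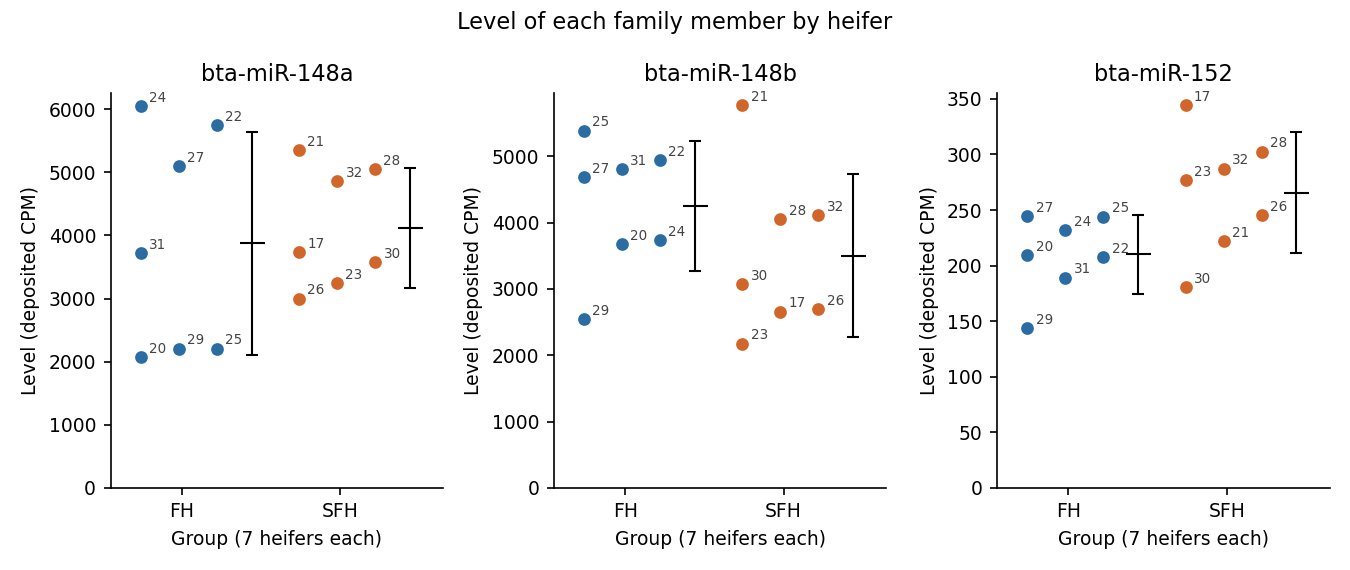
Level of bta-miR-148a, bta-miR-148b and bta-miR-152 in deposited CPM (vertical axes, each from 0) for the 7 FH and 7 SFH heifers, 1 numbered point per heifer. Black bars give the mean and SD of each group. bta-miR-148a spreads from 2072 to 6051 CPM within FH, and 5 SFH heifers lie above every FH heifer for bta-miR-152.

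The question posed by the study design was whether miRNA levels at weaning differed between heifers later found pregnant to insemination and heifers later found not pregnant. None of the 3 members met the criteria of the study, p at or under 0.05 before adjustment with a log2 fold change of 0.5 or more in size, which 3.81% of the 341 miRNAs met in edgeR's quasi-likelihood test and 4.69% in DESeq2. At any fold change, 0 of 3 members reached an unadjusted p of 0.05 in edgeR, DESeq2, limma-voom or the exact permutation test, against 5.87%, 6.16%, 8.21% and 6.16% of all 341 miRNAs in that order, so 0 of 3 is near the background. After Benjamini-Hochberg adjustment over the 341 miRNAs, 0% passed in edgeR and 0.587% in DESeq2, no member among them. The intervals below give the sizes of difference left possible in the edgeR fit. They rest on a variance that edgeR draws partly from other miRNAs, so they do not reflect the spread of a member alone.

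The log2 fold change of bta-miR-148b, SFH relative to FH, was −0.33 (standard error 0.21, 95% interval −0.77 to 0.10, edgeR adjusted p = 0.890), or 0.794 times the FH level. Its exact two-sided permutation p was 0.108 (difference in mean log2 level −0.38, n = 7 per group), or 0.735 adjusted over the 341 miRNAs. The estimate depended on SFH heifer 21, the high heifer named above. Without it the log2 fold change was −0.52 with an unadjusted p of 0.0177 in edgeR, past the criteria of the study but not past the adjustment (smallest adjusted p without 1 heifer, 0.576).

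bta-miR-152 had a log2 fold change of 0.27 (standard error 0.22, 95% interval −0.19 to 0.73, edgeR adjusted p = 0.947), or 1.21 times the FH level. By exact permutation (two-sided, 7 against 7 heifers) p was 0.0693, and 0.702 adjusted over the 341 miRNAs. TMM scaling applies a factor per library and reduces, without removing, the effect of library composition. On that scale 6 of the 7 SFH heifers lay above the FH median and 4 above every FH heifer.

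For bta-miR-148a the log2 fold change was 0.04 (standard error 0.24, 95% interval −0.46 to 0.54, edgeR adjusted p = 0.977), and exact permutation gave p = 0.652 (two-sided). Its direction changed to below 0 without FH heifer 20, 25 or 29 (−0.07, −0.04 and −0.06), without SFH heifer 21 (−0.05), and with the log2 total count as a covariate.

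The spread between heifers was moderate for the 3 members. The biological coefficient of variation estimated by edgeR was 34.5% for bta-miR-148a, 30.7% for bta-miR-148b and 34.1% for bta-miR-152, against a median of 66.0% over the 341 miRNAs, many of which are less abundant. That coefficient is drawn towards the values of miRNAs of similar abundance, so it is not the spread of a member alone. The SD of the log2 TMM level over the 14 heifers was 0.50 for bta-miR-148a, 0.44 for bta-miR-148b and 0.27 for bta-miR-152. By that measure bta-miR-152 was the 18th least variable of the 341, bta-miR-148b the 72nd and bta-miR-148a the 97th.

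**Figure D2:**
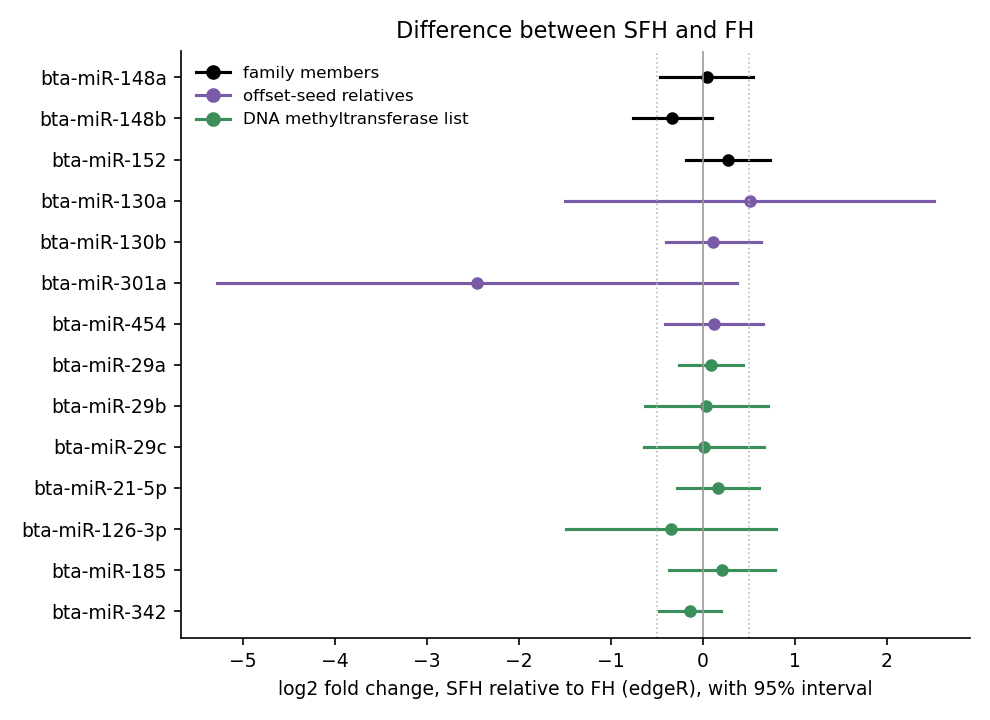
Log2 fold change, SFH relative to FH, from edgeR (points) with its 95% interval (lines) for the 3 family members and for 2 lists of related miRNAs, dotted lines marking ±0.5. The intervals of all 3 members include 0, from −0.77 to 0.10 for bta-miR-148b and from −0.19 to 0.73 for bta-miR-152.

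A ratio of 2 members within a library does not depend on library size or scaling, and the 3 ratios were compared between the groups. The ratio of bta-miR-148b to bta-miR-152 differed most, with a lower mean in SFH, but no ratio passed the adjustment over the 3. In FH it was 16.1 to 25.4 (median 19.1), and in SFH it was 7.70 to 26.0 (median 13.4). Of the 7 SFH heifers, 5 lay below every FH heifer, and SFH heifer 21 lay above every FH heifer. On the log2 scale the mean was 4.32 ± 0.25 (SD) for the FH heifers and 3.68 ± 0.62 for the SFH heifers. The difference of −0.64, or 0.640 times the FH ratio, had an exact two-sided permutation p of 0.0274, or 0.0822 after Benjamini-Hochberg adjustment over the 3 ratios. It therefore did not pass the adjustment. The value of −0.64 combines the differences in mean log2 level of the 2 members, −0.38 for bta-miR-148b and 0.26 for bta-miR-152. It is thus not separate from them, and the same holds for the other ratios. The unadjusted exact permutation p rose to 0.0524 without FH heifer 22, 0.0554 without FH heifer 31, 0.0524 without SFH heifer 17 and 0.0519 without SFH heifer 23, and it fell to 0.00117 without SFH heifer 21. With any 1 heifer left out, the difference stayed between −0.81 and −0.52.

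bta-miR-148a exceeded bta-miR-148b in 6 of 7 SFH heifers and in 3 of 7 FH heifers. Their ratio was 0.410 to 1.62 in FH (median 0.867) and 0.929 to 1.49 in SFH (median 1.18), so the SFH values fell within the FH range. The mean log2 ratio was −0.24 ± 0.67 (SD) for the FH heifers and 0.27 ± 0.23 for the SFH heifers, a difference of 0.51 with an exact two-sided permutation p of 0.0816 (0.122 adjusted over the 3 ratios). FH heifer 24, which had the highest ratio, weighed against the difference, and without it the difference was 0.66 with an exact permutation p of 0.00932. Without FH heifer 25, which had the lowest ratio, it was 0.33 with an exact permutation p of 0.155. All 7 SFH heifers lay above the FH median. For bta-miR-148a over bta-miR-152 the difference was −0.14, with an exact two-sided permutation p of 0.640 (n = 7 per group).

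As a share of the family's counts, bta-miR-148a took 28.2% to 60.4% in FH and 47.2% to 57.0% in SFH, and bta-miR-148b took 37.3% to 68.7% in FH and 38.2% to 50.8% in SFH. bta-miR-152 took 1.90% to 3.51% in FH and 1.96% to 5.12% in SFH. The summed level of the family was 8334 ± 2241 CPM (SD) for the FH heifers and 7887 ± 2127 CPM for the SFH heifers, a difference smaller than the spread within either group.

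**Figure D3:**
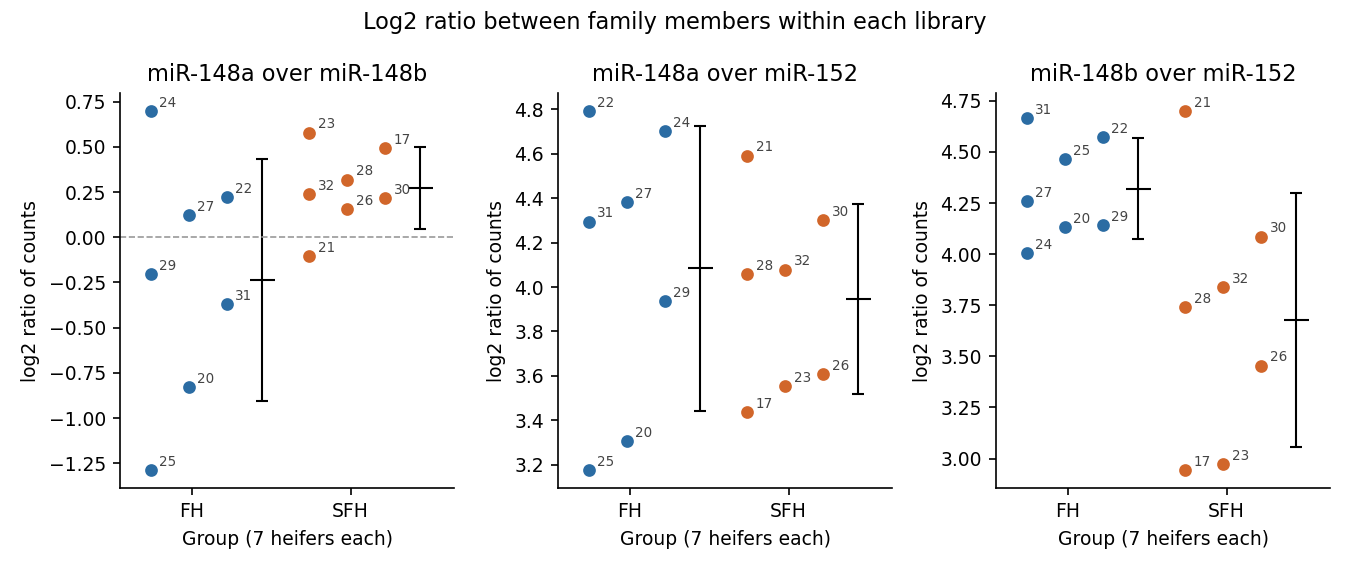
Log2 ratio of counts between members within each library (vertical axes) for the 7 FH and 7 SFH heifers, 1 numbered point per heifer, with the mean and SD of each group as black bars and a dashed line at equal counts of bta-miR-148a and bta-miR-148b. For bta-miR-148b over bta-miR-152, 5 SFH heifers lie below every FH heifer and SFH heifer 21 lies above them.

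No pair of paralogues showed a correlation over the 14 heifers that passed the test. Correlations were computed on log2(TMM-scaled CPM + 0.5), 9 in all for 3 pairs in the 14 heifers, in FH and in SFH. Over the 14 heifers, bta-miR-148a and bta-miR-148b had Pearson's r = 0.32 (permutation p = 0.253) and Spearman's rho = 0.41 (permutation p = 0.145). bta-miR-148a and bta-miR-152 had r = 0.16 (permutation p = 0.583) and rho = 0.07 (permutation p = 0.808), and bta-miR-148b and bta-miR-152 had r = −0.21 (permutation p = 0.465) and rho = −0.11 (permutation p = 0.716). Adjusted over the 9 relations, these p-values of r were 0.760, 0.822 and 0.822, and those of rho 0.434, 0.945 and 0.945. Leaving out FH heifer 25 raised the first r to 0.58 (permutation p = 0.0392). With the 2 heifers most distant from the first-named member's median left out, r was 0.40, 0.10 and −0.12 in the same order. For comparison, the 57970 pairs among the 341 miRNAs had a median r of 0.01, and 90% of them lay between −0.50 and 0.53.

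Within SFH, bta-miR-148a and bta-miR-148b followed each other closely, with r = 0.92 (exact permutation p = 0.00278, n = 7) and rho = 0.89 (exact permutation p = 0.0123, n = 7). The adjusted exact permutation p over the 9 relations was 0.0250 for r and 0.111 for rho. Of all pairs of miRNAs in these 7 heifers, 99.7% had a lower r. The value stayed high with fewer heifers, since r was 0.89 to 0.96 with each SFH heifer left out and 0.84 in the 5 that remained without heifers 21 and 28, the farthest from the median. Within FH this pair gave r = 0.15 (exact permutation p = 0.731, n = 7) and rho = 0.14 (exact permutation p = 0.783, n = 7), and r was 0.57 without heifer 25, in which bta-miR-148b was high (5387 CPM) and bta-miR-148a low (2207 CPM). Without heifers 20 and 24, the farthest from the median, r in FH was 0.18. The difference in r between the groups, 0.77, was tested after these values were seen and had an exact two-sided permutation p of 0.102 over 3432 arrangements, so a difference between the groups was not shown.

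The other pairs within a group gave no p-value under 0.05. In FH, bta-miR-148b and bta-miR-152 had r = 0.57 (exact permutation p = 0.175, n = 7) and rho = 0.68 (exact permutation p = 0.110, n = 7), and r fell to 0.23 without heifers 20 and 29. In SFH this pair gave r = −0.24 (exact permutation p = 0.613, n = 7) and rho = −0.21 (exact permutation p = 0.662, n = 7). The exact two-sided permutation p of the difference in r, −0.80, was 0.188. For bta-miR-148a with bta-miR-152, r was 0.19 in FH (exact permutation p = 0.671, n = 7) and 0.03 in SFH (exact permutation p = 0.951, n = 7).

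**Figure D4:**
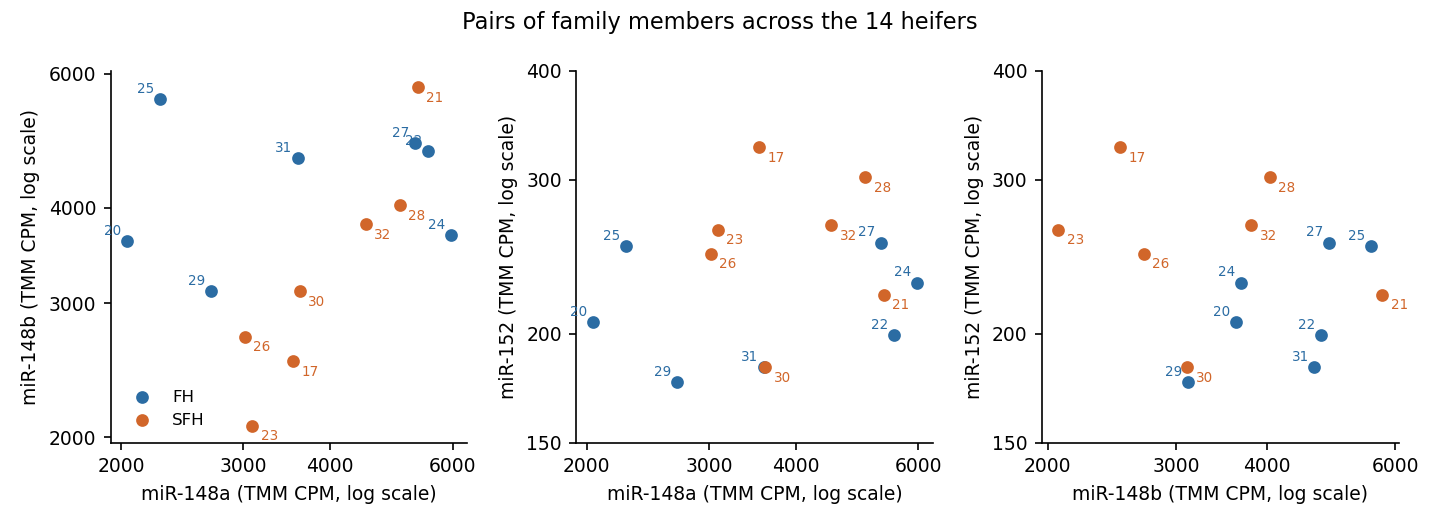
Levels of the members plotted against each other in pairs over the 14 heifers (TMM-scaled CPM, log axes), with FH in blue and SFH in orange and each point numbered by heifer. In the first panel the SFH heifers lie along a rising line (r = 0.92). FH heifer 25 has low bta-miR-148a and the highest bta-miR-148b of FH (2278 and 5558 TMM-scaled CPM). FH heifer 24 has the highest bta-miR-148a with a lower bta-miR-148b (5966 and 3682), and FH heifer 20 is low in bta-miR-148a (2040 and 3621).

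Because PWBC hold several cell types, each member was set against 5 lists of cell type miRNAs over the 14 heifers (15 relations). All these levels are shares of the same library, so a rise in an abundant miRNA lowers the others. Here as elsewhere, fewer cells of a type and less RNA per cell cannot be told apart in bulk samples. The strongest of the 15 were negative relations of bta-miR-148a and bta-miR-148b with bta-miR-223, the miRNA of neutrophils and monocytes, although neither passed the adjustment. For bta-miR-148a with bta-miR-223, r was −0.63 (permutation p = 0.0177, 0.136 adjusted over the 15 relations) and rho was −0.60 (permutation p = 0.0250, adjusted 0.156). The r was −0.73 within FH, −0.72 within SFH and −0.67 without the 2 farthest heifers. For bta-miR-148b with bta-miR-223, r was −0.60 (permutation p = 0.0235, adjusted 0.136) and rho −0.65 (permutation p = 0.0142, adjusted 0.156), with r = −0.37 in FH, −0.73 in SFH and −0.68 without the 2 farthest heifers. For bta-miR-152 no such relation was seen (r = 0.04, permutation p = 0.893, rho = −0.07, permutation p = 0.808).

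With the lymphocyte list (bta-miR-150, bta-miR-342 and bta-miR-181a), bta-miR-148a had r = −0.59 (permutation p = 0.0272, adjusted 0.136) and rho = −0.55 (permutation p = 0.0452, adjusted 0.156). Leaving out the 2 farthest heifers gave r = −0.59, and the value was −0.64 in FH and −0.67 in SFH. bta-miR-148b had r = −0.48 with that list (permutation p = 0.0864) and rho = −0.55 (permutation p = 0.0459, adjusted 0.156), with r = −0.29 once the 2 farthest heifers were left out. Its r was −0.56 in FH and −0.56 in SFH. For bta-miR-152, r was −0.41 (permutation p = 0.149) and rho −0.49 (permutation p = 0.0810), with r = −0.83 in FH and −0.22 in SFH. The leukocyte list, which holds bta-miR-150 and bta-miR-223 too, gave r = −0.49 for bta-miR-148a (permutation p = 0.0751, −0.54 in FH and −0.57 in SFH). It gave −0.48 for bta-miR-148b (permutation p = 0.0835, −0.64 in FH and −0.50 in SFH) and −0.31 for bta-miR-152 (permutation p = 0.276, −0.75 in FH and −0.14 in SFH). Whether any of these differed between the groups was not tested. No relation with a marker list passed the adjustment. The lists themselves overlapped between FH and SFH. The lymphocyte list summed to 63132 to 118601 CPM among FH heifers and 58439 to 132318 CPM among SFH heifers (p = 0.863 by exact permutation). bta-miR-223 ranged from 11918 to 22775 CPM among FH and from 15328 to 26631 CPM among SFH heifers (p = 0.245 by exact permutation). The part of cell composition in the differences between members was not tested.

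The list of bta-miR-126-3p and bta-miR-126-5p, found in platelets and endothelium, was low (22.4 to 68.3 CPM in FH and 4.52 to 46.9 CPM in SFH). bta-miR-148b had r = 0.53 with it (permutation p = 0.0433, adjusted 0.162) but rho = 0.24 (permutation p = 0.407). Leaving out the 2 farthest heifers gave r = 0.17, so the r over the 14 heifers depended on them. Its r was −0.36 within FH and 0.67 within SFH. For bta-miR-148a, r with this list was 0.22 (permutation p = 0.486), and 0.63 without the 2 farthest heifers. For bta-miR-152 it was −0.22 (permutation p = 0.471). With the red cell list, r over the 14 heifers was −0.20 for bta-miR-148a, 0.05 for bta-miR-148b and −0.23 for bta-miR-152 (permutation p = 0.494, 0.867 and 0.437). Within groups it was −0.76 in FH and 0.15 in SFH for bta-miR-148a, 0.15 and 0.12 for bta-miR-148b, and −0.34 and −0.36 for bta-miR-152. Once the 2 heifers most distant from the list's median were left out, r was −0.27 for bta-miR-148a, 0.53 for bta-miR-148b and −0.23 for bta-miR-152. Library depth gave r = −0.30 for bta-miR-148a (permutation p = 0.297), 0.18 for bta-miR-148b (permutation p = 0.535) and −0.21 for bta-miR-152 (permutation p = 0.458). Without the 2 heifers most distant from the median depth, r was −0.41 for bta-miR-148a, −0.17 for bta-miR-148b and −0.45 for bta-miR-152.

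**Figure D5:**
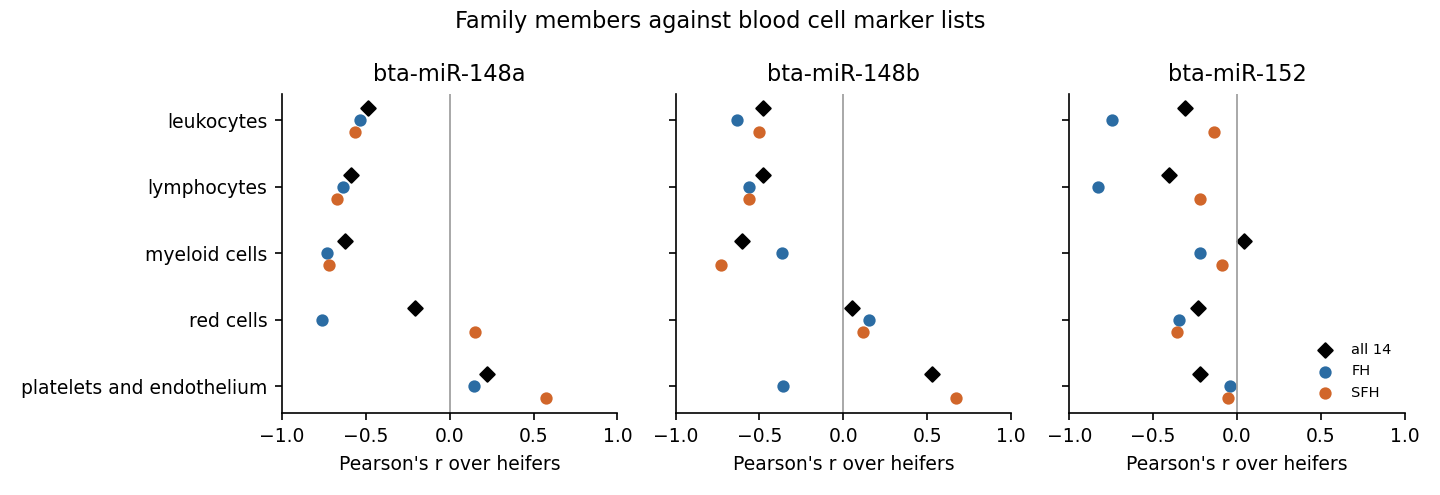
Pearson's r (horizontal axes) of each family member with the summed level of 5 cell type marker lists, over all 14 heifers (black diamonds), FH (blue) and SFH (orange). For bta-miR-148a with the myeloid miRNA bta-miR-223, r is −0.73 in FH and −0.72 in SFH.

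Outside the family, the miRNAs whose levels were most like each member were taken by Pearson's r over the 14 heifers. For bta-miR-148a they were bta-miR-11991 (r = 0.84, present at only 0 to 25.2 CPM), bta-miR-374a (r = 0.83, 433 to 1429 CPM) and bta-miR-2285k (r = 0.83, 45.2 to 167 CPM), each with r of at least 0.81 within both groups. The opposite pattern was that of bta-miR-197 (r = −0.81). For bta-miR-148b the closest were bta-miR-211 (r = 0.67), bta-miR-874 (r = 0.64, but −0.40 within FH and 0.88 within SFH) and bta-miR-1271 (r = 0.58), and the farthest was bta-miR-20b (r = −0.75). For bta-miR-152 they were bta-miR-6523a (r = 0.75), bta-miR-330 (r = 0.73) and bta-miR-1434-3p (r = 0.72, but 0.17 within FH and 0.87 within SFH). bta-miR-1434-3p was present at only 0 to 41.9 CPM (median 3.68 CPM). The farthest from bta-miR-152 was bta-miR-15b (r = −0.85, with −0.52 within FH and −0.96 within SFH). These names were picked as extremes among 338 miRNAs, so the values describe the heifers and carry no test. Of them, bta-miR-874 (log2 fold change −0.71, unadjusted p = 0.00386 in edgeR) and bta-miR-1434-3p (2.94, unadjusted p = 0.0343 in edgeR) met the criteria of the study, and neither passed the adjustment. Their r over the 14 heifers therefore also holds a difference between the groups.

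The miR-130, miR-301 and miR-454 miRNAs carry the seed core of the family shifted by a base, so their targets overlap only in part. Of the 5 listed, 4 were tested and none met the criteria of the study in edgeR, near the share of all 341 miRNAs that did (3.81%). The median log2 fold change of these 4 was 0.11, against 0.06 over all 341 miRNAs. bta-miR-130b averaged 417 CPM in FH against 479 CPM in SFH (log2 fold change 0.11, standard error 0.25), and bta-miR-454 had 188 CPM and 214 CPM (0.12, standard error 0.26). bta-miR-130a was low, at 11.4 CPM in FH and 17.6 CPM in SFH (log2 fold change 0.51, standard error 0.96). bta-miR-301a had a median of 24 counts in FH and 0 in SFH, with no count in 1 FH and 4 SFH heifers. Its log2 fold change was −2.46 (95% interval −5.28 to 0.37, unadjusted p = 0.0849 in edgeR), whereas exact permutation gave p = 0.0303. It was the 1 miRNA of the 4 to reach an unadjusted p of 0.05 by exact permutation and in limma-voom, as did 6.16% and 8.21% of all miRNAs, and 0 of the 4 did in edgeR or DESeq2 (5.87% and 6.16% of all). bta-miR-301b, with 86 counts over the 14 heifers, was too low to be tested.

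Other miRNAs known to lower DNA methyltransferases, directly or through an intermediate, were listed beside the family. All 7 were tested, and 0 reached an unadjusted p of 0.05 in edgeR, DESeq2, limma-voom or the exact permutation test, where the shares over all 341 miRNAs were 5.87%, 6.16%, 8.21% and 6.16%. A count of 0 among 7 is near that background. Their log2 fold changes lay between −0.35 (bta-miR-126-3p) and 0.21 (bta-miR-185), with a median of 0.04. bta-miR-29a, which targets the de novo methyltransferases DNMT3A and DNMT3B, averaged 4218 CPM in FH against 4684 CPM in SFH, a level near that of bta-miR-148a (log2 fold change 0.09, standard error 0.17). bta-miR-29b and bta-miR-29c, of the same seed family, had log2 fold changes of 0.04 and 0.01. bta-miR-21-5p, which acts on DNMT1 indirectly in T cells, averaged 53409 CPM in FH against 62830 CPM in SFH (0.16, standard error 0.21), and bta-miR-342 had 13120 and 12452 CPM (−0.14, standard error 0.16).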

How the data were processed

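Libraries of small RNA came from the PWBC of 7 FH and 7 SFH heifers, 1 per animal. Following sequencing, the authors removed the 3′ adapter and 4 bases from each end of the reads with Cutadapt, aligned them with miRDeep2 to ARS-UCD1.2 and to the cattle miRNAs of miRBase, and deposited raw counts per mature miRNA and precursor. The deposited CPM values cover 341 miRNAs and, recomputed from the counts over these 341 miRNAs, were the same in all 14 heifers (relative tolerance 1e-09). The submitters' processing notes name edgeR 3.28.1 and DESeq2 1.26.0. The members differ by few bases, so reads with errors could have been counted on another member, which these files do not show. Their mature sequences were not used here.

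The precursor entry with the highest total was kept per name, and miRNAs reaching a CPM of 1 in 7 or more heifers were tested (SFH relative to FH) with the quasi-likelihood test of edgeR 4.0.16 in R 4.3.3 after TMM scaling, without covariates. Standard errors and 95% intervals follow from the F statistic of each fold change, and p-values were adjusted by Benjamini-Hochberg over all miRNAs tested. Exact permutation tests enumerated 3432 arrangements and were run on log2(TMM-scaled CPM + 0.5) or on log2 ratios of counts (each + 0.5). Correlations over 14 heifers used 100000 permutations, and those over 7 used all pairings. DESeq2 1.42.0 and limma 3.58.1 were alternatives, as were other scalings, filters, pseudocounts, a depth covariate and each heifer left out. Other steps used Python 3.11.15, numpy 2.4.6 and pandas 2.3.3. The edgeR script was tested on simulated data.

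The depth was 1754971 to 5468341 counts per heifer, so 3 counts correspond to 0.549 to 1.71 CPM (counting error only). Further miRNAs were named by rule, namely the lists, the 3 miRNAs with the highest r and the 1 with the lowest r for each member, and its neighbours in mean CPM. The members and lists were chosen with earlier results of these data known. Labels gave no batch.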

Additional observations from a re-analysis of the deposited data

How the results depend on the processing

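Of 212 alternative values other than counts, 197 kept their direction and their side of the threshold. Most main values had an unadjusted p above 0.05, so staying on that side was likely beforehand and the tally is no measure of stability. For the ratio of bta-miR-148b over bta-miR-152, with an unadjusted p under 0.05, 12 alternatives were the same and 4 were weaker. Among alternative counts of miRNAs, 18 of 23 were within 1.5 times the main count. The number of miRNAs past the criteria, 13, became 23 with limma-voom, 126 without the CPM filter (of 614 miRNAs tested) and 20 with every precursor entry kept (of 434 tested), and 11 to 21 with 1 heifer left out (21 without FH heifer 24 and 20 without FH heifer 27). The log2 fold change of bta-miR-148a was −0.0043 with the log2 total count as a covariate and −0.07 to 0.18 with 1 heifer left out, reversing without FH heifers 20 (−0.069), 25 (−0.037) and 29 (−0.060) and SFH heifer 21 (−0.045). That of bta-miR-148b was −0.52 to −0.25 with 1 heifer left out and that of bta-miR-152 was 0.21 to 0.37. The cause of these changes was not tested. Over the other fits the adjusted p-values were 0.891 to 0.9995 for bta-miR-148a, 0.408 to 0.943 for bta-miR-148b and 0.676 to 0.992 for bta-miR-152.

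With 1 heifer left out, the difference in log2 ratio was 0.33 to 0.66 for bta-miR-148a over bta-miR-148b, −0.81 to −0.52 for bta-miR-148b over bta-miR-152 and −0.29 to −0.02 for bta-miR-148a over bta-miR-152. The correlation of bta-miR-148a with bta-miR-148b was 0.23 to 0.58 over all heifers (permutation p = 0.0392 without FH heifer 25). Within FH, in alternatives chosen after the data were seen, it was −0.05 to 0.57 (−0.047 without heifer 20 and −0.050 without heifer 29), and within SFH it was 0.89 to 0.96. The correlation of bta-miR-148a with the lymphocyte list was −0.49 with library totals only (permutation p = 0.0740). No paired analysis was possible because each heifer has a number of its own. Counting depth did not limit the members, each with at least 379 counts per library, but bta-miR-301a and bta-miR-301b were at or near 0 in many.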
